A study of Mus musculus with 27 samples.

Results

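The genes described here are the subunits of the vacuolar proton pump and the cathepsins, which together acidify the lysosome and digest protein in it. They were taken by name from the annotation of the array, as symbols that begin with Atp6v or Atp6ap, or that are Cts and a single letter. Each also had to have a probe set, the measuring unit of the array, that names no other gene. Atp6v0c is not among the genes taken. The rule found 40 genes, 22 of the pump and 18 cathepsins, among the 18193 genes measured, and the a3 subunit of the pump, whose symbol is Tcirg1, falls outside it. RNA of epididymal adipose tissue (EAT), the visceral fat pad beside the testis of the mouse, was hybridised to Affymetrix mouse genome arrays with 1 array for each of 27 male C57BL/6J mice. The mice were bought at 5 weeks of age and, after a week on a standard diet, were kept for 18 weeks on 1 of 3 diets with 9 mice on each. The quercetin mice ate a Western-style diet that contained 0.05% quercetin, a plant flavonol, and the Western mice ate the same diet without it. That diet had 39.9% of its energy from fat, mainly butter, 34.0% from sucrose, and 0.15% cholesterol. The control mice ate AIN93G, a purified rodent diet. Cages held 3 mice each, and since no source names the cage of a mouse, the tests treat mice as independent.

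The vacuolar ATPase is a rotary motor. Its V1 sector hydrolyses ATP in the cytosol, its V0 sector carries protons across the membrane, and the acid that collects inside activates the cathepsins, most of which are cysteine proteases made as inactive precursors. Macrophages of obese fat hold many lysosomes, in which they break down the lipid and remnants of dying adipocytes, while osteoclasts place the same pump and cathepsin K at their surface to dissolve bone. Many lysosomal genes share a short DNA element that is bound by TFEB and its relatives of the MiT family.

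A probe set sums several oligonucleotides that match the 3' end of a messenger RNA, and where a gene had more than 1, the set with the highest average was used. Signals of different probe sets do not compare RNA amounts between genes. Signals are given as log2 of the intensity after quantile normalization, with intensities under 1 set to 1, so that the lowest possible value is 0. A difference was called where limma gave an adjusted p under 0.05 over all 18193 genes. Adipocyte markers were high on every array. Their mean log2 signal ran from 12.02 to 12.33 on quercetin, from 11.93 to 12.26 on the Western diet and from 11.83 to 12.41 on the control diet. Markers of other tissues stood out on 6 arrays. The mean log2 signal of the testis markers was 8.52 on quercetin replicate 5, 8.77 on Western replicate 7 and 12.65 on control replicate 6, while smooth muscle markers stood out on control replicates 2 and 4 and lymph node markers on control replicate 3. Calls that changed without these arrays are named beside the results.

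The Western diet raised pump subunits and cathepsins over the control diet. Of the 40 genes, 17 were higher (8 pump subunits and 9 cathepsins), against 11.3% of all genes, 1 was lower, against 6.44% of all genes, and 22 did not pass the test. The median log2 fold change was 0.18 over the pump and 0.38 over the cathepsins, beside -1.8e-05 over all genes. With arrays shifted to the same median instead, 20 genes were higher and 0 lower, but this scaling also called more of all genes higher and fewer lower. In 6 genes (Atp6v0d2, Atp6v1a, Ctsk, Ctsd, Ctsl and Ctsb) every Western mouse lay above every control mouse, which was so, in one direction or the other, for 1.3% of all genes. In bulk tissue, more cells of a type and more RNA per cell cannot be told apart.

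**Figure D1:**
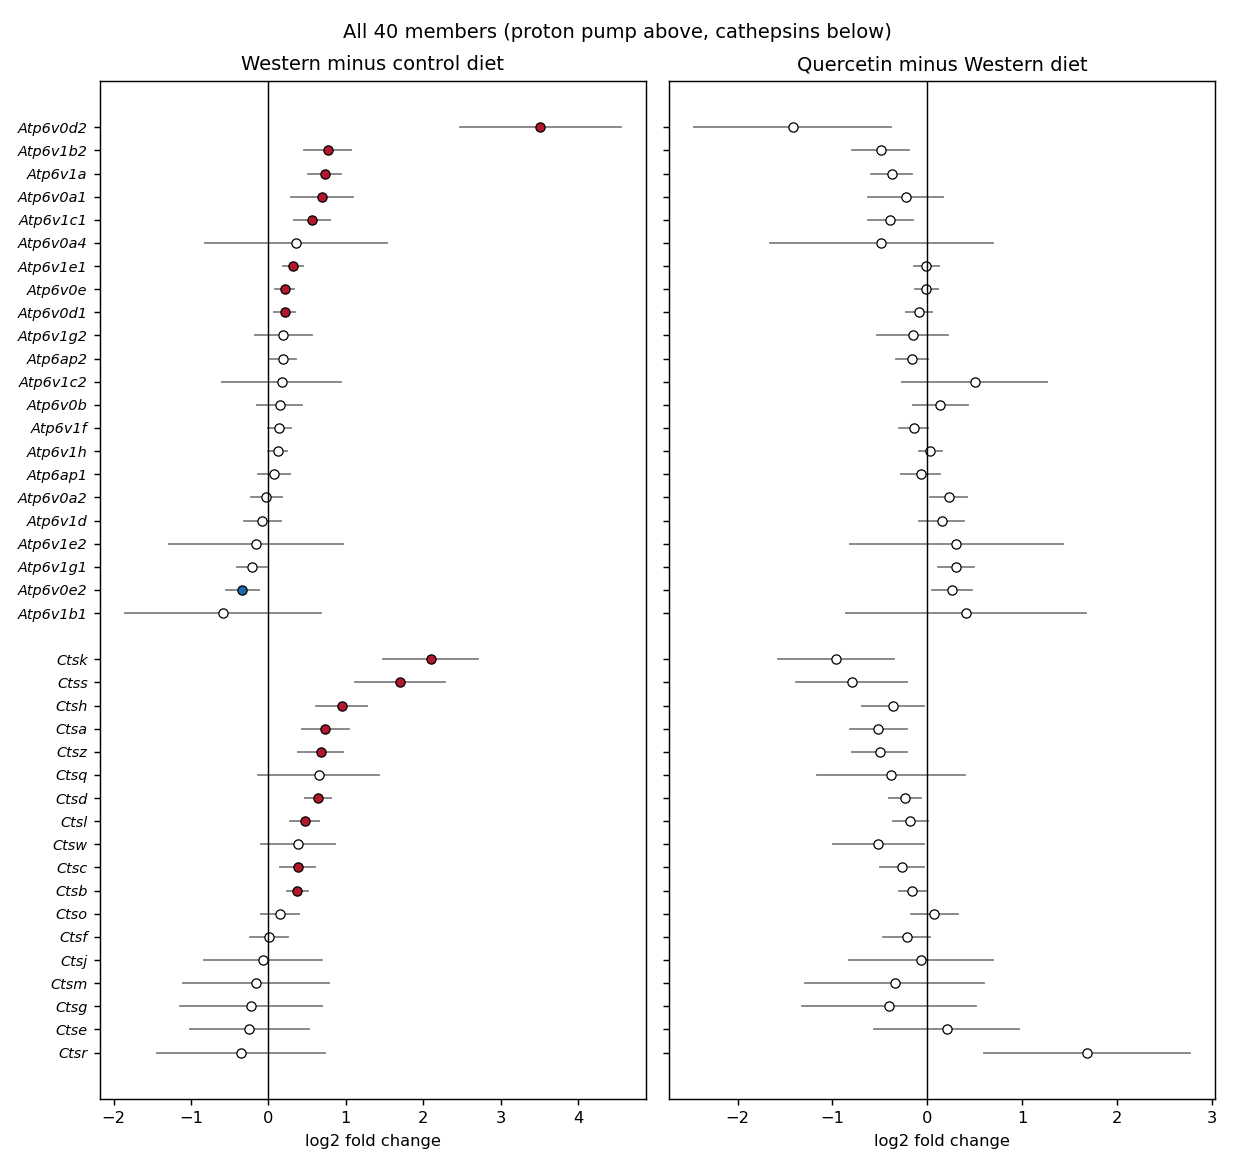
Log2 fold changes of all 40 genes (points) with 95% intervals from limma (lines), for Western minus control diet on the left and quercetin minus Western diet on the right. Red points are higher and blue points lower at an adjusted p under 0.05, and white points did not pass. On the left 17 points are red and 1 is blue, and on the right all are white.

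The largest difference among the 40 genes was that of Atp6v0d2, the d2 isoform of the V0 sector, known from osteoclasts, kidney and macrophages. Its log2 signals ran from 5.72 over a median of 8.49 to 10.16 on quercetin, from 8.16 over 10.36 to 10.68 on the Western diet, and from 4.92 over 6.55 to 7.93 on the control diet. The lowest Western mouse thus lay above the highest control mouse, while the quercetin mice covered nearly the whole span of both. Its means were 9.88 ± 0.89 on the Western diet and 6.37 ± 0.89 on the control diet (SD, n = 9 each), a log2 fold change of 3.51 with a 95% interval of 2.47 to 4.55 and an adjusted p of 3.73e-05, or 11.4-fold. A second probe set of the gene gave 3.45. Its ubiquitous counterpart Atp6v0d1 differed far less, with a log2 fold change of 0.21 (adjusted p = 0.029), and without control replicate 8 or 9 or Western replicate 1 or 6 it did not pass, with an adjusted p between 0.0505 and 0.0577. The call was also lost with no normalization (limma adjusted p = 0.155), in a fit of the 2 diets alone and with a block for the replicate number. Likewise it was lost with the test of the study's methods, which is described below with the quercetin results.

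In the V1 sector the 2 kinds of subunit that form the ring where ATP is hydrolysed were both higher on the Western diet. Atp6v1a, the catalytic A subunit, had log2 signals from 10.05 over a median of 10.44 to 10.69 on quercetin, from 10.47 over 10.90 to 10.96 on the Western diet and from 9.65 over 10.04 to 10.34 on the control diet. The log2 fold change of the Western diet over the control diet was 0.73 (95% interval 0.51 to 0.94, adjusted p = 4.01e-05). Western and control mice did not overlap, and of the quercetin mice 4 lay within the control range, 4 within the Western range and 1 between. Atp6v1b2, the B subunit used in most tissues, had log2 signals from 9.26 over 9.98 to 10.42 on quercetin, from 9.83 over 10.50 to 10.71 on the Western diet and from 9.19 over 9.51 to 10.18 on the control diet, and 7 of 9 Western mice lay above all control mice. Its log2 fold change was 0.76 (adjusted p = 0.00059), and a second probe set gave 0.81, but averaging in its 2 dim probe sets as well gave 0.41 and ended the call (adjusted p = 0.127). The B1 isoform Atp6v1b1 and the a4 isoform Atp6v0a4, both known from acid-secreting kidney cells, had mean log2 signals of 3.01 or less on every diet and did not pass.

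Among the stalks that hold the motor still, subunits C and E were higher as well. Atp6v1c1, the C subunit, had log2 signals from 9.77 over a median of 10.24 to 10.70 on quercetin, from 10.14 over 10.79 to 10.90 on the Western diet and from 9.85 over 10.09 to 10.55 on the control diet, and its log2 fold change was 0.56 (adjusted p = 0.00096). Atp6v1e1, the E subunit, had log2 signals from 11.17 over 11.43 to 11.50 on quercetin, from 11.28 over 11.42 to 11.53 on the Western diet and from 10.79 over 11.04 to 11.32 on the control diet. In this gene quercetin and Western mice covered nearly the same range, and the log2 fold change of the Western diet over the control diet was 0.32 (adjusted p = 0.00098), which did not pass when its 4 probe sets were averaged (0.45, adjusted p = 0.095). Atp6v1g1, the G subunit, did not pass and had -0.22 (adjusted p = 0.111). The rotor subunits Atp6v1d and Atp6v1f, with -0.08 and 0.14, and the regulatory subunit Atp6v1h, with 0.12, did not pass either. Without the 6 arrays with markers of other tissues Atp6v1h was higher (0.20, adjusted p = 0.019).

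Among the membrane subunits, Atp6v0a1, an isoform of the large a subunit, had log2 signals from 8.13 over a median of 8.78 to 9.33 on quercetin, from 8.61 over 9.12 to 9.56 on the Western diet and from 7.18 over 8.55 to 8.96 on the control diet. The log2 fold change of the Western diet over the control diet was 0.69 (adjusted p = 0.014), and without the 6 arrays with markers of other tissues it did not pass. Nor did it pass with the test of the study's methods. Atp6v0a2, the isoform known from the Golgi, had -0.03 and did not pass. Atp6v0e, the small e subunit, had log2 signals from 11.59 over 11.80 to 11.90 on quercetin, from 11.71 over 11.78 to 11.96 on the Western diet and from 11.20 over 11.60 to 11.76 on the control diet, and differed by 0.21 on the log2 scale (adjusted p = 0.014) for Western over control. With no normalization Atp6v0e did not pass (limma adjusted p = 0.128), nor with the test of the study's methods. The accessory subunit Atp6ap2, also named the prorenin receptor, had log2 signals from 10.98 over 11.28 to 11.54 on quercetin, from 11.17 over 11.45 to 11.68 on the Western diet and from 10.88 over 11.26 to 11.43 on the control diet, and did not pass (log2 fold change 0.19, adjusted p = 0.127).

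A single member was lower on the Western diet, Atp6v0e2, the other isoform of the e subunit. Its log2 signals ran from 8.95 over a median of 9.28 to 9.74 on quercetin, from 8.82 over 9.11 to 9.34 on the Western diet and from 9.0 over 9.41 to 9.63 on the control diet. The groups overlapped, with 3 of 9 Western mice below all control mice, and the log2 fold change was -0.34 (adjusted p = 0.023). Without Western replicate 8 the adjusted p was 0.0501, and with no normalization or with arrays shifted to the same median the gene did not pass.

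Among the cathepsins the largest difference was that of Ctsk, a collagen-cleaving cysteine protease known as the main protease of osteoclasts. Its log2 signals ran from 7.53 over a median of 9.01 to 10.12 on quercetin, from 9.11 over 10.05 to 10.77 on the Western diet and from 7.12 over 7.90 to 8.83 on the control diet. Western and control mice did not overlap, and the means were 9.99 ± 0.56 on the Western diet and 7.90 ± 0.60 on the control diet (SD, n = 9 each). The log2 fold change was 2.10 with a 95% interval of 1.48 to 2.71 (adjusted p = 3.5e-05), or 4.27-fold. Ctss, the cathepsin of antigen-presenting cells that trims the invariant chain of MHC class II, lies next to Ctsk on chromosome 3. Its log2 signals ran from 10.20 over 11.45 to 12.59 on quercetin, from 11.58 over 12.60 to 12.81 on the Western diet and from 9.80 over 10.73 to 11.90 on the control diet, and its log2 fold change was 1.70 (adjusted p = 0.00013). Control replicate 3, the array high in lymph node markers, was the highest control mouse and lay above 2 Western mice.

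Ctsh, an aminopeptidase among the cysteine cathepsins, had log2 signals from 9.79 over a median of 10.14 to 10.68 on quercetin, from 10.02 over 10.67 to 10.90 on the Western diet and from 8.98 over 9.55 to 10.24 on the control diet, and differed by 0.95 on the log2 scale (adjusted p = 0.00014) for Western over control. Of the Western mice, 8 of 9 lay above all control mice. Ctsa, a serine carboxypeptidase that also protects lysosomal galactosidase and neuraminidase, had log2 signals from 9.54 over 10.04 to 10.60 on quercetin, from 9.9999 over 10.71 to 11.08 on the Western diet and from 9.44 over 9.83 to 10.19 on the control diet. Its log2 fold change was 0.73 (adjusted p = 0.00087). Ctsz, a carboxypeptidase, had log2 signals from 11.37 over 12.06 to 12.43 on quercetin, from 11.93 over 12.55 to 12.80 on the Western diet and from 11.37 over 11.80 to 12.09 on the control diet, and differed by 0.67 on the log2 scale (adjusted p = 0.0013). Ctsc, which activates the proteases of granules, had 0.38 (adjusted p = 0.018), while its other 2 probe sets gave -0.01 and 0.08. The call was lost when the probe sets were averaged (0.15, adjusted p = 0.405) and without the 6 arrays with markers of other tissues (0.25, adjusted p = 0.193).

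Ctsb, Ctsl and Ctsd, whose probe sets had the highest signals of the cathepsins, are housekeeping proteases of most cells, the first pair cysteine and Ctsd an aspartic protease. Ctsd had log2 signals from 11.78 over a median of 12.32 to 12.47 on quercetin, from 12.39 over 12.51 to 12.59 on the Western diet and from 11.63 over 11.77 to 12.14 on the control diet. The Western mice lay close together, with an SD of 0.06 against 0.21 in the control mice, and the log2 fold change of 0.64 had the smallest p among the 40 genes (adjusted p = 1.37e-05). Ctsl had log2 signals from 12.24 over 12.74 to 12.90 on quercetin, from 12.66 over 12.82 to 12.95 on the Western diet and from 11.95 over 12.51 to 12.61 on the control diet, and differed by 0.47 on the log2 scale (adjusted p = 0.00058). Ctsb had log2 signals from 12.54 over 12.90 to 13.03 on quercetin, from 12.86 over 13.06 to 13.16 on the Western diet and from 12.36 over 12.70 to 12.82 on the control diet, and differed by 0.37 on the log2 scale (adjusted p = 0.0003). For Ctsb the size depended on the probe set. The brightest one gave 0.37, while 3 dimmer ones gave 0.90, 1.35 and 1.62, and the dimmest, with a mean log2 signal of 5.77, gave 0.20 and did not pass.

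**Figure D2:**
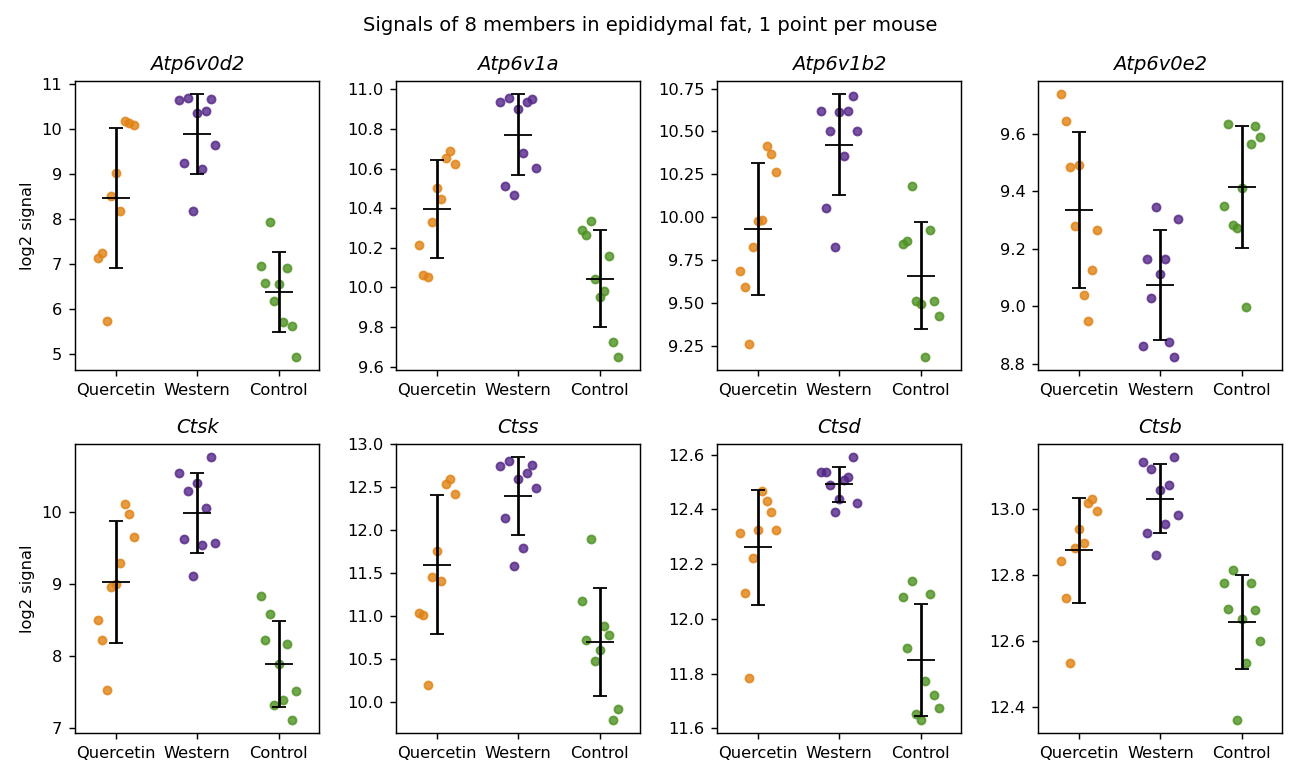
Log2 signals (vertical axes, 1 scale per gene) of 4 pump subunits and 4 cathepsins in 9 mice on each of quercetin, Western and control diet. Points are mice and black bars the mean and SD. Western and control mice do not overlap in Atp6v0d2, Atp6v1a, Ctsk, Ctsd and Ctsb, and quercetin mice overlap both in each of these.

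The 9 cathepsins that did not pass included those of other cells and tissues. Ctsj, Ctsm, Ctsq and Ctsr, which in rodents are known from the placenta, had mean log2 signals of 2.53 or less on every diet, as did Ctsg, a serine protease of neutrophil granules. Ctsw of cytotoxic lymphocytes and the aspartic protease Ctse had means between 4.90 and 5.42. Only Ctso and Ctsf, cysteine proteases with log2 fold changes of 0.15 and 0.01 for Western over control, had means above 7 among these 9. Reading every probe set added 2 genes. The 40 genes had 79 probe sets, of which 35 were higher with the Western diet, against 9.24% of all single-gene probe sets, and they belonged to 19 genes, namely the 17 above, Atp6ap2 and Atp6v0b, a proteolipid of the rotating membrane ring. In 7 of 21 genes with several probe sets the sign differed between them, but none was called in opposite directions.

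Promoters of the members were examined for the DNA element of TFEB and its relatives, which many lysosomal genes share. Sequences from 250 bases before to 50 bases after the transcription start were taken from RefSeq (GRCm38.p6) for 30 of the 40 genes, 12 of the 17 higher ones among them. The palindrome TCACGTGA, searched as written since it reads the same on both strands, was present in 5 of these 30 promoters and in 1.12% of all 27025 genes with a promoter. All 5 (Ctsa, Ctsd, Atp6v1a, Atp6v0d1 and Atp6v0e) belonged to the 12 higher genes, and 0 of the other 18 had it. This split rests in part on Atp6v0d1 and Atp6v0e. The calls of both were lost with no normalization and with the test of the study's methods. The core CACGTG, which lies inside the palindrome, was present in 6 of the 12, in 2 of the 18 and in 8.09% of all genes. The 5 genes with the palindrome are shown on the strand of the gene, with the palindrome in capitals.
Ctsd, chr7:142387883-142387962, minus strand: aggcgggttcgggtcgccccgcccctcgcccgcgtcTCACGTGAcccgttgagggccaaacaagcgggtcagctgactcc
Atp6v1a, chr16:44139348-44139427, minus strand: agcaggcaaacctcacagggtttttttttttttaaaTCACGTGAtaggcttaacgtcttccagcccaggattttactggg
Ctsa, chr2:164833724-164833772, plus strand: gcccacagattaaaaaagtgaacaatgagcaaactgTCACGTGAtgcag
Atp6v0d1, chr8:105566051-105566078, minus strand: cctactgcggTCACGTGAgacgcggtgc
Atp6v0e, chr17:26676388-26676415, plus strand: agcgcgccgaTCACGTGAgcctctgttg
The centre of the palindrome lay 95 bases before the start in Ctsd and 128 bases before it in Atp6v1a, and Ctsa had a second copy just after the start. The element GAGGAAGT, recognised by the myeloid factor PU.1 and searched on both strands, was present in 2 of the 12 higher genes, 0 of the other 18 and 3.69% of all genes. These 2 were Ctss and Ctsc, and the match of Ctss, on the opposite strand and shown in capitals, spans the transcription start.
Ctss, chr3:95526774-95526801, plus strand: atgaaagttcACTTCCTCattgtggatg
A match of letters does not show that a factor binds there. Many lysosomal genes share the palindrome, and it was chosen with earlier results known, so its share among these genes is not a test. The genes not called higher include several with signals near the floor. The counts of the 2 sets thus do not compare genes of like signal. No palindrome was found in the promoters of Ctsk and Ctss, the cathepsins with the largest differences, and Atp6v0d2 is not among the 30.

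Adding quercetin to the Western diet left no member past the threshold, though cathepsin signals lay mostly below those of Western mice. Limma called 0 of the 40 genes higher, against 0.253% of all genes, and 0 lower, against 0.077% of all genes, and at an unadjusted p under 0.05 it gave 4 higher, against 7.31% of all genes, and 13 lower, against 6.41% of all genes. No gene among the 40 had quercetin mice apart from all Western mice, as 0.269% of all genes had. The median log2 fold change was -0.04 over the pump and -0.30 over the cathepsins, beside 0.02 over all genes, and with no normalization that of the pump was 0.02 beside 0.09 over all genes. The 4 genes with the smallest p among the 40 were Atp6v1a (log2 fold change -0.37, 95% interval -0.59 to -0.16, adjusted p = 0.103), Ctsz (-0.50, adjusted p = 0.103), Ctsa (-0.51, adjusted p = 0.109) and Atp6v1c1 (-0.39, adjusted p = 0.115). Atp6v0d2 had -1.42 with a 95% interval of -2.46 to -0.38 (adjusted p = 0.18), and Ctsk had -0.96 with -1.57 to -0.35 (adjusted p = 0.129). The mean of Atp6v0d2 was 8.46 ± 1.56 on quercetin and 9.88 ± 0.89 on the Western diet (SD, n = 9 each).

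These calls depended on the test. With the test of the study's methods, in which a test over the 3 diets is adjusted over genes and the pairs of diets only among themselves, 9 members were lower with quercetin (Atp6v0d2, Atp6v1a, Atp6v1b2, Atp6v1c1, Ctsa, Ctsd, Ctsk, Ctss and Ctsz), and the p of the pair lay between 0.0063 and 0.040 in them. The same test called more of all genes too, 2.91% lower and 2.6% higher. Limma with array weights called 9 members lower, against 3.38% of all genes, and 2 higher, against 4.21% of all genes. Among all single-gene probe sets, 1 of the 79 of these genes was lower with quercetin, against 0.0658% of all such probe sets. It belonged to Ctsb and was not dim, with a mean log2 signal of 11.53. In that gene only the probe set used above was brighter, at 12.86. Quercetin minus Western came to -0.59 there on the log2 scale (limma over probe sets, adjusted p = 0.025). For some pump subunits the intervals were narrow around 0. Atp6v1e1 and Atp6v0e had log2 fold changes of -0.01 each between quercetin and the Western diet, with intervals of -0.14 to 0.12 and -0.13 to 0.11. Atp6v0e2, the member that was lower in Western than in control mice, had 0.26 (adjusted p = 0.239), and Atp6v1g1 had 0.30 (adjusted p = 0.13).

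Quercetin mice did not form a single level. In Atp6v0d2, quercetin replicates 7, 8 and 9 had log2 signals of 10.16, 10.12 and 10.09, inside the range of the Western mice. Replicates 1, 2 and 3 had 7.12, 7.24 and 5.72, inside the range of the control mice, and replicates 4, 5 and 6 had 8.49, 9.01 and 8.17, in the lower part of the range of the Western mice. The same 3 quercetin mice, replicates 7, 8 and 9, were also the highest of their diet in Ctss, with 12.54, 12.59 and 12.42, and in Atp6v1a, with 10.65, 10.69 and 10.63. Their mean log2 signals of macrophage markers, 9.88, 9.92 and 9.76, were the highest of the diet as well. Cages held 3 mice and the levels went by consecutive numbers, but no source ties numbers to cages, so mouse and cage cannot be told apart here, and tests over 9 mice would overstate the number of independent units if cage mates were alike.

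**Figure D3:**
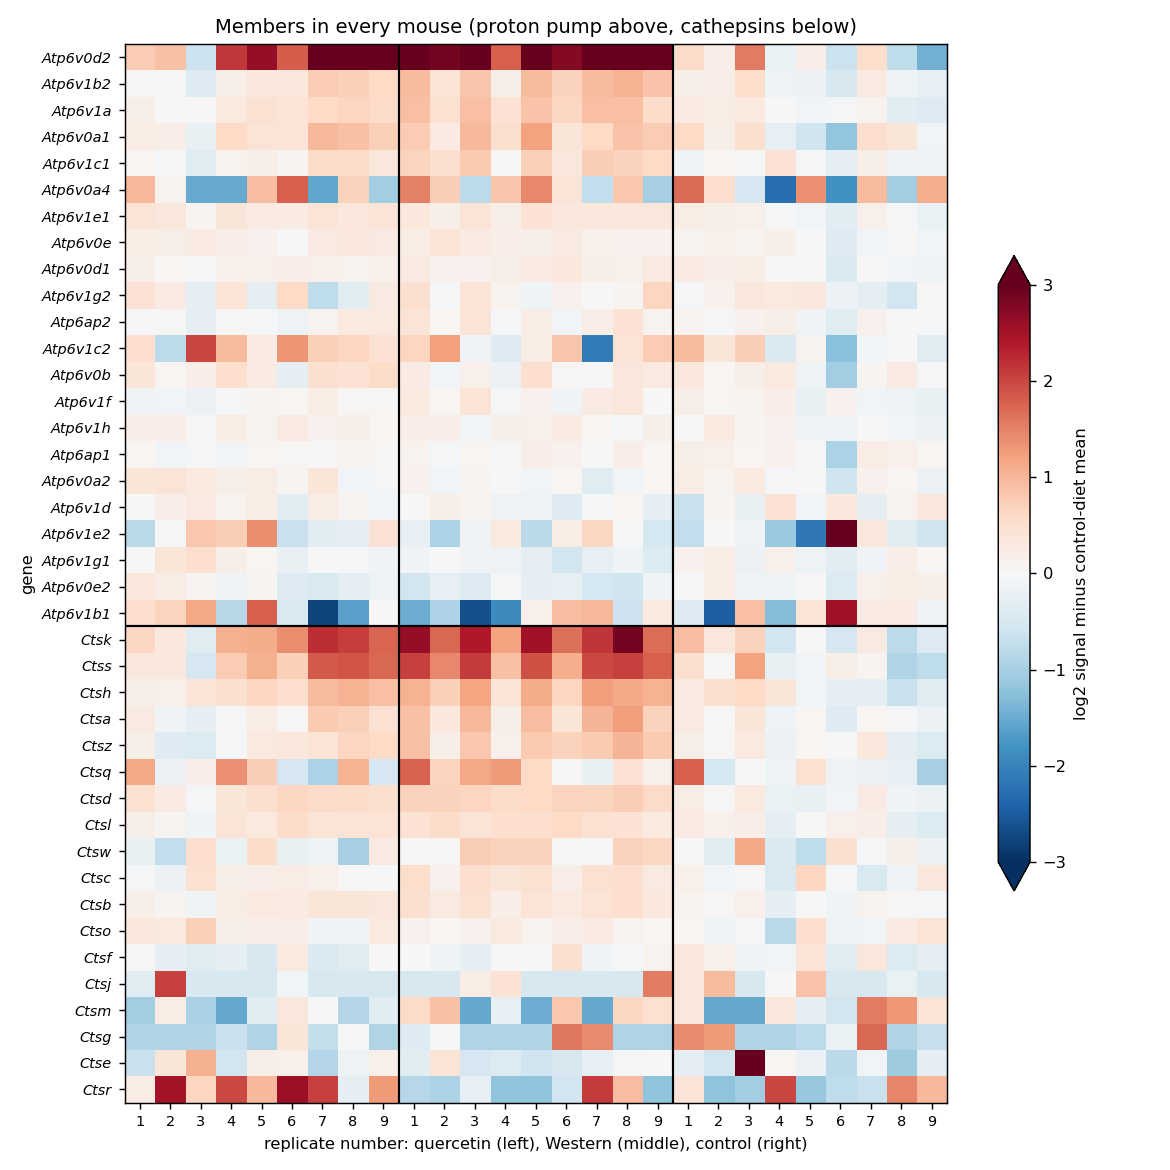
Log2 signal minus the mean of the control mice for each of 40 genes (rows) in each of 27 mice (columns, with quercetin left, Western in the middle and control right). Red is above and blue below the control mean, and colours end at 3 in each direction. Atp6v0d2, Ctsk and Ctss lie above the control mean in the Western mice and in all quercetin mice except replicate 3. Among quercetin mice they are highest in replicates 7, 8 and 9.

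Against the control diet, quercetin mice still had some higher pump subunits and cathepsins. Of the 40 genes, 7 were higher, against 5% of all genes, and 0 were lower, against 1.65% of all genes, while at an unadjusted p under 0.05 13 were higher, against 14.5% of all genes, and 0 lower, against 7.36% of all genes. They were Atp6v0d2 (log2 fold change 2.09, adjusted p = 0.014), Ctsk (1.13, adjusted p = 0.022), Ctsh (0.58, adjusted p = 0.028), Ctsd (0.41, adjusted p = 0.0033), Atp6v1a (0.35, adjusted p = 0.043), Atp6v1e1 (0.31, adjusted p = 0.0055) and Atp6v0e (0.20, adjusted p = 0.041). This comparison uses the same control mice as that of the Western diet, and in none of the 40 were quercetin and control mice apart, as they were for 0.253% of all genes. Of the quercetin mice, 8 of 9 lay above all control mice in Atp6v1e1 and 7 of 9 in Ctsd. Only 3 members (Atp6v0d2, Atp6v1e1 and Ctsd) passed without quercetin replicate 7, and likewise without replicate 8, while 4 passed without quercetin replicate 9, control replicate 8 or control replicate 9. Without the 6 arrays with markers of other tissues, Ctsk did not pass (log2 fold change 1.13, adjusted p = 0.072), and Atp6v1h and Ctss did. Over 14 alternative settings, the call was lost in 9 for Atp6v1a, 7 for Atp6v0e, 5 for Ctsk and 4 for Ctsh. It was lost in 2 each for Atp6v0d2 and Atp6v1e1 and in 0 for Ctsd. Other probe sets of these genes, tested with limma over probe sets, differed. A second one of Atp6v1a gave 0.02 (adjusted p = 0.948). The dimmer ones of Atp6v1e1 gave 0.40, 0.41 and 0.51 and did not pass, while second ones of Atp6v0d2 (2.03) and Ctsh (0.70) passed. Among members not called here, a probe set other than the one used passed as higher in Ctsa, Ctsb, Ctsl, Ctsz and Atp6v0b.

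The rest of the lysosome was read from lists of genes that encode its other parts. Of 31 measured hydrolases other than cathepsins, 20 were higher and 0 lower in Western than in control mice, and the median log2 fold change was 0.38. All list counts of Western against control mice stand beside the 11.3% of all genes that were higher and the 6.44% that were lower. Galc, which degrades galactosylceramide, had 0.72 (adjusted p = 2.08e-05), Gusb, the beta-glucuronidase, had 1.28 (adjusted p = 2.34e-05), Lgmn, which processes cathepsin precursors, had 1.73 (adjusted p = 3.5e-05), and Lipa, the acid lipase of cholesteryl esters and triglycerides, had 1.70 (adjusted p = 4.01e-05). Of 18 lysosomal membrane proteins and partners, 8 were higher and 0 lower. They included Npc2, which hands cholesterol to a transporter in the membrane (0.52, adjusted p = 2.34e-05), and Cd68 (2.52, adjusted p = 2.83e-05), Gpnmb (2.75, adjusted p = 0.0002) and Laptm5 (1.12, adjusted p = 0.0011), which are known from macrophages and other blood cells. The general membrane proteins Lamp1 and Lamp2 had 0.16 (adjusted p = 0.0508) and 0.15 (adjusted p = 0.102) and did not pass.

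Of 31 regulators and sorting factors, Western mice had 8 higher and 2 lower. Among the transcription factors that bind the palindrome, Mitf was higher (log2 fold change 0.75, adjusted p = 0.0011), while Tfeb (0.38, adjusted p = 0.14) and Tfe3 (0.31, adjusted p = 0.135) did not pass. Their relative Tfec, also on the list, is not described here. Ncoa7, which binds the pump, had 0.56 (adjusted p = 0.00012), Wdr7, a partner in its assembly, had 0.40 (adjusted p = 0.00013), and Fnip2, a folliculin partner in nutrient sensing at the lysosome, had 0.92 (adjusted p = 0.00044). The 2 lower genes, about the share of lower genes on the whole array, were Sort1, a sorting receptor, with -0.37 (adjusted p = 0.0034), and Rogdi, linked to the pump through the rabconnectin complex, with -0.53 (adjusted p = 0.012). Sort1 did not pass with arrays shifted to the same median, and Rogdi did not without the 6 arrays with markers of other tissues. When the probe sets of a gene were averaged, Galc, Laptm5, Mitf and Ncoa7 did not pass, with adjusted p between 0.093 and 0.336. Of 11 inhibitors of cathepsins and related proteases, 6 were higher and 0 lower. Cstb, an inhibitor of cysteine cathepsins in the cytosol, had 0.71 (adjusted p = 2.6e-05), Cst3, the secreted cystatin C, had 0.36 (adjusted p = 0.00017), and the serpins Serpinb6b and Serpinb9 had 1.37 and 0.82 (adjusted p = 0.00013 each). With quercetin, 0 genes of these 4 lists were higher than on the Western diet, against 0.253% of all genes, and 0 lower, against 0.077%. Against the control diet, 5 of 31 hydrolases, 4 of 18 membrane proteins, 7 of 31 regulators and 3 of 11 inhibitors were higher. Over all genes 5% were higher in that comparison.

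Macrophage markers moved with these genes. Of 18 markers, 15 were higher and 0 lower in Western than in control mice (Mertk, Cd163 and Aif1 did not pass), and their mean log2 signal ran from 8.72 over a median of 9.16 to 9.92 on quercetin, from 9.21 over 10.15 to 10.41 on the Western diet and from 8.33 over 8.62 to 9.41 on the control diet. None was near 0, the lowest mean being that of Itgam with 5.30 on the control diet. For quercetin against the Western diet, 0 of the 18 passed, with a median log2 fold change of -0.71. Of 9 markers of lipid-associated macrophages, 7 were higher in Western than in control mice, among them Trem2 (log2 fold change 4.02). Of 7 osteoclast markers, 3 were higher and 1 (Mmp9) was lower, though not without the 6 arrays (adjusted p = 0.086). The median log2 fold change of the 7 was 0.24. Their mean log2 signal had a median of 4.74 on quercetin, 5.18 on the Western diet and 4.59 on the control diet. Calcr, the calcitonin receptor, had low means of 1.04, 2.10 and 2.0 on quercetin, Western and control diet. Whether osteoclast-like cells were present was not tested. Of 8 adipocyte markers, only Slc2a4, the insulin-regulated glucose transporter, passed, with a log2 fold change of -0.70 (adjusted p = 0.0019).

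Within each diet the relation of 4 members to the macrophage markers was examined over 9 mice, with exact two-sided permutation tests adjusted over 12 relations. The tests treat the 9 mice as independent, and their p would be too small if cage mates were alike. Pearson's r of Ctss with the mean marker signal was 0.97 on quercetin (exact p = 2.48e-05, adjusted 0.0003), 0.97 on the Western diet (exact p = 5.51e-05, adjusted 0.0003) and 0.91 on the control diet (exact p = 0.00049, adjusted 0.001), with Spearman's rho of 0.98, 0.90 and 0.87. For Atp6v0d2, r was 0.95, 0.97 and 0.82 on the 3 diets in the same order, and rho was 0.93, 0.90 and 0.73. For Ctsk, r was 0.92, 0.88 and 0.79, and rho was 0.88, 0.72 and 0.80. For Atp6v1a, r was 0.94, 0.92 and 0.70, and rho was 0.95, 0.85 and 0.65. The adjusted permutation p of r was 0.034 or less in all 12 relations, and that of rho was 0.040 or less in 11 of 12 and 0.067 for Atp6v1a on the control diet. Without the 2 mice farthest from the median marker signal, r stayed between 0.84 and 0.95 on quercetin and between 0.75 and 0.96 on the Western diet, and on the control diet it was 0.53 for Atp6v0d2, 0.56 for Ctsk, 0.73 for Ctss and 0.45 for Atp6v1a, so that the relations on the control diet rest in part on control replicates 1 and 3. The part of macrophages in the differences between diets was not tested.

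**Figure D4:**
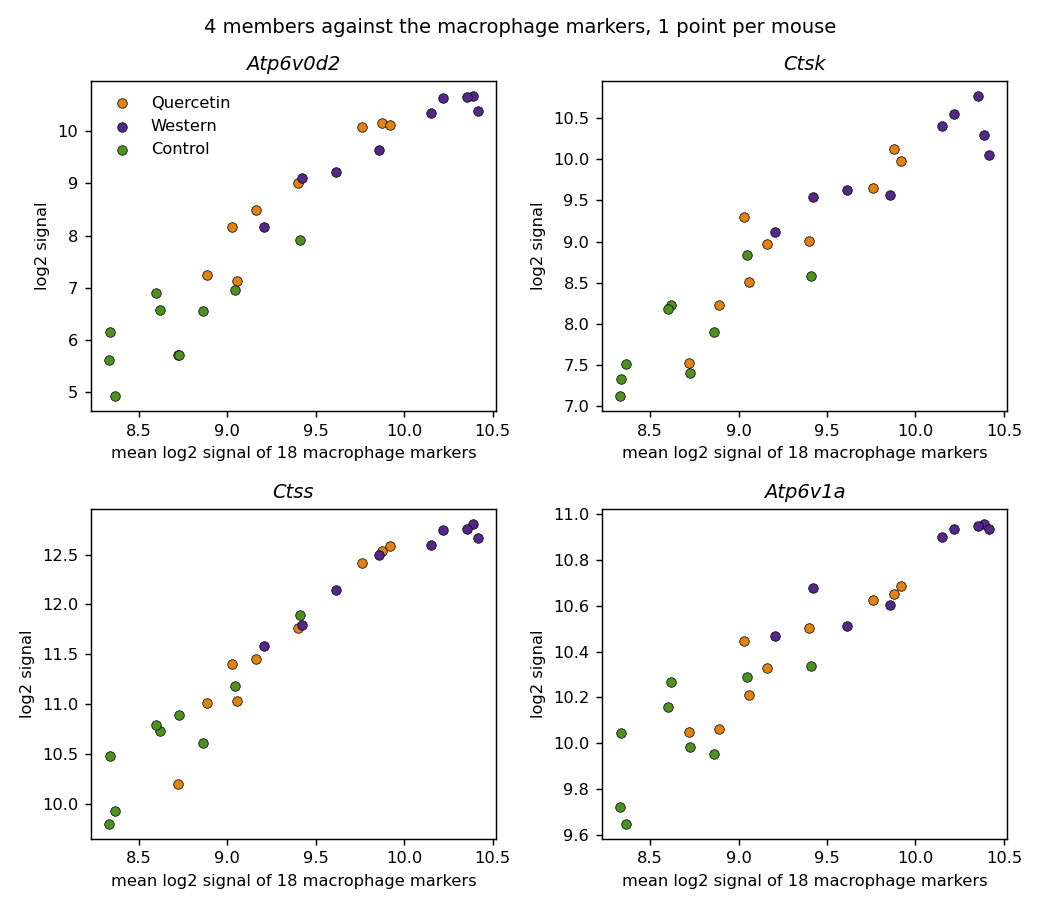
Log2 signals of Atp6v0d2, Ctsk, Ctss and Atp6v1a (vertical axes) against the mean log2 signal of 18 macrophage markers (horizontal axes), with 1 point per mouse and colours for quercetin, Western and control diet. Within each diet the points rise together, with r from 0.70 to 0.97.

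The ratio of 3' to 5' signal of control probe sets, which grows as RNA is degraded, also differed between diets. The mean log2 ratio of beta-actin was 1.14 on quercetin and 0.79 on the Western diet (exact permutation p = 0.00012, adjusted over 6 tests 0.00074), and that of Gapdh was 0.19 on quercetin and -0.05 on the Western diet (exact permutation p = 0.007, adjusted 0.014). For the Western diet against the control diet the beta-actin ratio was 0.79 against 1.11 (exact permutation p = 0.0036, adjusted 0.011), and the Gapdh ratio -0.05 against 0.14 (exact permutation p = 0.055, adjusted 0.082). Quercetin and control mice, with 1.14 against 1.11 and 0.19 against 0.14, differed by less than the spread between mice (exact permutation p = 0.82 and 0.62). The part of RNA quality in the differences between diets was not tested.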

How the data were processed

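The arrays were scanned and summarised by the authors with Microarray Suite and GeneSpring, and the deposited values are linear signal intensities, 1 per probe set and mouse, that were not scaled between arrays (median intensity 25.1 to 54.3 per array). The labels' extraction protocol names liver, whereas the titles, the tissue label and the study's methods name EAT, and the adipocyte markers were high on all arrays. After 64 control probe sets were left out, the intensities were quantile normalized, raised to a floor of 1 and taken as log2. Of the 45101 probe sets, 34945 name a single gene, 932 with several genes and 9211 with no name were not used, and the set with the highest average stood for each of 18193 genes. Diets were compared in R 4.3.3 with limma 3.58.1 (1 mean per diet over 27 arrays, trended variance, Benjamini-Hochberg adjustment over all genes), and the code was tested on simulated data. No detection calls were used, so low signals have no stated limit, and the number of arrays limits the precision. Per-mouse values are given for members with the largest differences, the highest signals, the smallest p for quercetin or no overlap of diets, and up to 4 genes with the smallest p are named per list, while further genes were chosen after their values were seen. The 40 genes, the lists and the elements searched in promoters were chosen with earlier results of these data known. Alternatives were 2 other scalings, a pseudocount (16) or a higher floor (32), dropping dim genes, averaging the probe sets of a gene, variance without trend, array weights, the test of the methods, fits of 2 diets, an adjusted p under 0.01, a block for the replicate number, and fits that left out 1 array at a time. Leaving out all 6 arrays with markers of other tissues was chosen after seeing the data. Protein sequences were not used here. Python 3.11.15 with matplotlib 3.10.9 made the figures.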

Additional observations from a re-analysis of the deposited data

Results flagged for a closer look

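In 12 of 120 groups of 9 mice, 1 mouse stood apart from the others in a member gene by Dixon's measure (the gap to the nearest mouse over the whole range), where chance gives about 1 in 20. Control replicate 6, the array with the highest testis markers, gave 5 of these. It was above the others in Atp6v1e2, a testis isoform of the E subunit, with a log2 signal of 9.20 against 2.34 to 4.80 in the other control mice, and below the others in Atp6v0e (11.20), Atp6ap2 (10.88), Atp6v0b (8.91) and Atp6ap1 (9.65). Western replicate 7, also high in testis markers, was below the others in Atp6v1c2 (2.20) and Atp6v0a2 (7.44). Control replicate 3, the array high in lymph node markers, was above the others in Ctse, with 8.43 against 4.17 to 5.28. Control replicate 4 was below the others in Ctso (9.20), and Western replicate 6 was above the others in Ctsf (8.50). In Ctsj, whose median signal was 0 on quercetin and the Western diet, quercetin replicate 2 had 2.52 and Western replicate 9 had 2.01.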

How the results depend on the processing

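The count of members higher in Western than in control mice was 13 to 20 under all alternatives and 16 to 17 with each array left out. The count lower, 1 (Atp6v0e2), was 0 with no normalization, with arrays shifted to the same median, with the test of the methods and at an adjusted p under 0.01, was 2 with array weights (Atp6v0e2 and Atp6v1g1) and with a replicate block, and ran from 0 (without Western replicate 8) to 2 (without control replicate 6) with each array left out. For quercetin against the Western diet the count of 0 lower became 9 with array weights, 9 with the test of the methods and 1 (Atp6v1a) in a fit of the 2 diets alone, and the count of 0 higher became 2 with array weights (Atp6v1g1 and Ctsr) and 1 (Ctsr, whose signals are low) without the 6 arrays with markers of other tissues. Both stayed at 0 to 0 with each array left out. For quercetin against the control diet the 7 higher members became 3 with no normalization, 4 with arrays shifted to the same median, 3 in a fit of the 2 diets alone and 2 at an adjusted p under 0.01, and ran from 3 to 10 with each array left out. Of the named results, the direction turned only in some that had not passed in the fit used here, and none of these passed after the turn. For the Western against the control diet, Ctsf (0.01) became -0.026 with no normalization, -0.35 with probe sets averaged, -0.064 with array weights, -0.041 without control replicates 2, 4 and 6 and -0.062 without the 6 arrays, and ran from -0.051 to 0.056 with each array left out. Atp6v0a2 (-0.03) became 0.044 with arrays shifted to the same median and 0.15 with probe sets averaged, and ran from -0.104 to 0.014 with each array left out. Atp6v1d (-0.08) became 0.068 with arrays shifted, 0.060 without control replicates 2, 4 and 6 and 0.042 without the 6 arrays. Ctso (0.15) became -0.035 and -0.095 in these last 2 settings. Atp6v1g1 (-0.22) became 0.035 with probe sets averaged, though it passed as lower with array weights, with a replicate block and without control replicate 6. For quercetin against the Western diet, with no normalization Atp6v1e1 and Atp6v0e (-0.01 each) became 0.044 and 0.050, Atp6v0e became 0.0016 with array weights, and with each array left out Atp6v1e1 ran from -0.028 to 0.018 and Atp6v0e from -0.024 to 0.015. Mice with the same replicate number did not vary together (median r 0.01 over 27 pairs, 10 of them above 0.1), so the numbers do not pair mice. The replicate block gave 16 higher and 2 lower for Western against control mice, 0 and 0 for quercetin against it, and 5 higher for quercetin against the control diet. Shifting arrays to the same median moved the median of all genes to 0.07 for the Western against the control diet, and higher calls then outnumbered lower ones by 2325 to 578, against 2047 to 1172. Causes of these changes were not tested. Signals near the floor limit the placental cathepsins, Ctsg, Atp6v1b1 and Atp6v0a4.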
